A study of Mus musculus with 24 samples.

Results

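The WNT signalling gene loci were taken as the gene bodies of 39 protein-coding genes of the mouse annotation (GENCODE, GRCm38), each extended by 20 kb on both sides. The genes were 10 WNT ligands, 10 receptors, 4 genes of receptor turnover, 7 secreted inhibitors, 3 effectors, 3 genes of the β-catenin destruction complex and 2 genes of ligand secretion. Peaks of 12 deposited ATAC-seq lists were merged into 134385 regions where they overlapped by at least 1 bp, and 369 of these regions overlapped a WNT window. The windows held 2264 of the 708357 peaks. ATAC-seq reads open chromatin by the insertion of sequencing adapters by the Tn5 transposase. Each value below is the authors' normalized peak score, kept by them from 3 upwards and scaled to a like total in each list, and a score of 0 here means that the list had no peak in the region.

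The in vivo lists came from epidermal stem cells (EpdSCs) of male CD1 mice with the genotype K14rtTA; TRE-myc-Sox9, in which doxycycline (DOX) turns on MYC-tagged SOX9 in cells that use the Krt14 promoter, that is, the basal skin epithelium. Cells were sorted as negative for CD31, CD45, CD117 and CD140a, high for CD49f and Ly6A and negative for CD34, and each replicate pooled several mice. They were collected before DOX (D0, postnatal day 21) and after 1 week (W1, day 28), 2 weeks (W2, day 35), 6 weeks (W6, day 63) and 12 weeks (W12). The W12 skin was neonatal skin grafted onto female Nude hosts, so that week and tissue source cannot be told apart for that list. The 7 culture lists came from primary EpdSCs of newborn male pups, all carrying K14rtTA. The noDOX list bears the same genotype label as WT-SOX9 (TRE-myc-Sox9), and the 6 arms given DOX at 1 µg/ml were WT-SOX9, ΔHMG-SOX9 (TRE-myc-Sox9noHMG, without the DNA-binding HMG domain), ΔTA-SOX9 (TRE-myc-Sox9noTA, without the transactivation domain), AFOS (TRE-FLAG-AFOS, an engineered FOS that blocks DNA binding by AP1 factors), SOX9+AFOS and SOX9+ARID1a (TRE-ARID1a, part of the SWI/SNF remodelling complex). The labels give DOX day 3 for 1 replicate each of WT-SOX9, ΔHMG-SOX9 and ΔTA-SOX9 and day 0 for 1 of noDOX, and no duration for the other culture samples, so that the arms may differ in time on DOX. All 6 arms were compared with the single noDOX list and so share it. Each of the 12 groups had 2 replicates, but the authors merged them before calling the peaks of these lists. The lists therefore hold no spread between replicates. No difference could be tested from them, and all counts below describe these lists.

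WNT ligands are secreted glycoproteins, and PORCN and WLS are needed to acylate and export them. A ligand that bridges a Frizzled receptor and LRP5 or LRP6 stops the destruction complex of AXIN and APC from degrading β-catenin (Ctnnb1), which then enters the nucleus and activates genes with TCF and LEF proteins. RNF43 and ZNRF3 remove Frizzled from the surface and R-spondin with LGR4 blocks them, while DKK, SFRP, WIF1 and NOTUM act on ligand or co-receptor outside the cell. In skin, WNT signals are needed to start hair follicles and to keep the basal epidermis, and constant β-catenin activity gives hair follicle tumours.

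The sequences of 12 regions that carry the changes described below are given first, as 200 bp around the middle of each region on the plus strand of GRCm38. A region is named by its gene and by the distance from the annotated gene start to its middle, negative when upstream. Capitals mark matches on either strand to the letters searched: ACAATGG and ACAATAG for SOX, CTTTGAT and CTTTGAA for TCF/LEF, TGANTCA for AP1, TGTGGT for RUNX and AGATAA for GATA. Of these 12, the first 4 had a peak from W2 on and none earlier, apart from Lgr4, which had a low one at D0.
Sfrp2 +15.7 kb, chr3:83781923-83782122: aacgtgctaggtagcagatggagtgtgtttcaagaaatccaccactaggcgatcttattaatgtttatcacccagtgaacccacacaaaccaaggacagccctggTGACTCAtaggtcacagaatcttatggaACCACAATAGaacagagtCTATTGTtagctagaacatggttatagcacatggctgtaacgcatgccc
Sfrp1 +31.8 kb, chr8:23443204-23443403: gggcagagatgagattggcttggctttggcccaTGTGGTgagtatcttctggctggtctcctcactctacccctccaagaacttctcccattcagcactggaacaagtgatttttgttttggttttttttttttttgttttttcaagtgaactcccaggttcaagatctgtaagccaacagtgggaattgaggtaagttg
Lrp6 -3.0 kb, chr6:134569828-134570027: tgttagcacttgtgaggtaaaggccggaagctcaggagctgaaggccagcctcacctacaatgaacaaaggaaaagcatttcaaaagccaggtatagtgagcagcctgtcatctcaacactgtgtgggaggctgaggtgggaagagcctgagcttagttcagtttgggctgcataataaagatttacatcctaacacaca
Lgr4 +48.6 kb, chr2:109966102-109966301: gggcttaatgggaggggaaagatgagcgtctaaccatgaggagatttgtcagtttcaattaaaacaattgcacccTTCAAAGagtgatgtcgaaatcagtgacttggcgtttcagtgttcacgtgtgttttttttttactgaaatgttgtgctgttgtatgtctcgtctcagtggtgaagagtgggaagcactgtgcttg
The next is the one region at Ctnnb1 that appeared at W2 and stayed, followed by a Wls region that WT-SOX9 opened in culture alone.
Ctnnb1 -1.8 kb, chr9:120927279-120927478: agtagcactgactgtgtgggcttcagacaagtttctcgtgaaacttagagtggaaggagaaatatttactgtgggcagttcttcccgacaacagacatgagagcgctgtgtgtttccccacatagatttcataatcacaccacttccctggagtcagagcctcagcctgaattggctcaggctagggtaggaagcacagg
Wls +88.2 kb, chr3:159927766-159927965: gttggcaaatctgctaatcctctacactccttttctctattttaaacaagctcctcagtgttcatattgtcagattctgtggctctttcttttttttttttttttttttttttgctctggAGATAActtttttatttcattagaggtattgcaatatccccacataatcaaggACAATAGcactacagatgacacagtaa
The last 6 were lost, at 2 effector genes in culture with WT-SOX9 and at ligand, receptor and turnover genes by W2 in vivo.
Lef1 +58.9 kb, chr3:131169265-131169464: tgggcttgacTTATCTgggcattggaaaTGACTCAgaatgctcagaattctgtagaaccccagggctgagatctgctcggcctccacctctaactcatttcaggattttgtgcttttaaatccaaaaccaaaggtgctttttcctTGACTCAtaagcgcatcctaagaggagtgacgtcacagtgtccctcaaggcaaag
Ctnnb1 -15.9 kb, chr9:120913246-120913445: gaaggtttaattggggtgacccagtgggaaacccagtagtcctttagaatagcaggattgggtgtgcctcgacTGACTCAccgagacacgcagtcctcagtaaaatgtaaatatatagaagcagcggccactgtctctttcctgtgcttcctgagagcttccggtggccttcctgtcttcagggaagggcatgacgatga
Wnt3 +6.3 kb, chr11:103780338-103780537: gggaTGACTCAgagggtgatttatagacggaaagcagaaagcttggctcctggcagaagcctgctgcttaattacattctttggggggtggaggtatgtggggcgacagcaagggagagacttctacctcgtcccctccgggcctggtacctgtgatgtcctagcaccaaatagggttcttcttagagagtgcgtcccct
Wnt5a +40.7 kb, chr14:28545386-28545585: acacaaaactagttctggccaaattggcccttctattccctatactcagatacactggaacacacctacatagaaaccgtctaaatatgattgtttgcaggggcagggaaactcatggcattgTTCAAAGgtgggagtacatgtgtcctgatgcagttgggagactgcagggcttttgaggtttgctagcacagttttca
Fzd2 +19.4 kb, chr11:102623705-102623904: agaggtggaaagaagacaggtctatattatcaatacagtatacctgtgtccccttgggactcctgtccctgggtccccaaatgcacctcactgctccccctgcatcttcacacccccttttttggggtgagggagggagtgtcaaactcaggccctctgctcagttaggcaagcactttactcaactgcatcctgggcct
Rnf43 +19.7 kb, chr11:87682348-87682547: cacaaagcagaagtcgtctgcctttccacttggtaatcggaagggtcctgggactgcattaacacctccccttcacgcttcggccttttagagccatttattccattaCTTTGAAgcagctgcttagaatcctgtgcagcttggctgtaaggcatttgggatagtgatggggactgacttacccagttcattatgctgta

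Among these, the Sfrp2 +15.7 kb sequence held 2 SOX matches, 1 of which shares letters with a RUNX match, and an AP1 match. The Wls +88.2 kb sequence held a SOX and a GATA match. The TCF/LEF letters were found at Lgr4 +48.6 kb, Wnt5a +40.7 kb and Rnf43 +19.7 kb, and the AP1 letters at Wnt3 +6.3 kb, at Ctnnb1 -15.9 kb and, 2 times, at Lef1 +58.9 kb. Over all 369 WNT regions, the central 200 bp held SOX letters in 4.61%, TCF/LEF letters in 8.13%, AP1 letters in 18.7%, RUNX letters in 15.7% and GATA letters in 9.21%. The same shares over 134343 regions of the whole series with a full window were 6.07%, 7.02%, 24.4%, 16.5% and 10.7%. A match is a string of letters and no measured binding site.

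The lists held 49458 to 75956 peaks, and the WNT windows took 0.284 to 0.360% of the regions of each list. How deeply the libraries were sequenced is unknown here. The promoters (within 1 kb of the annotated start) of Krt5, Krt14, Itgb4 and Col17a1 were open in all 12 lists, which makes 4 of the 6 basal epidermal markers, while none of 5 immune markers was open in any list. The remaining basal markers, Itga6 and Trp63, had no such peak in any list, although the paper reports Trp63 mRNA at D0. A missing peak at the annotated start therefore does not show that a gene is off. Melanocyte markers were open at 2 of 5 genes in each in vivo list, at 1 of 5 in 6 culture lists and at 3 of 5 in SOX9+AFOS, fibroblast markers at 0 or 1 of 5 and endothelial markers at 0 or 1 of 3. Hair follicle stem cell markers were open at 3 to 5 of 6. A peak confined to the last exon of Sox9 can come from transgene DNA without introns. It was present at D0 (13.5), W2 (15.1), W6 (9.22) and W12 (8.84) but not in the list labelled W1, and peaks confined to Arid1a exons past the first numbered 12 in SOX9+ARID1a but also 8 in the list labelled AFOS and 7 in SOX9+AFOS, against 0 or 1 in each of the other 9 lists. WT-SOX9, ΔHMG-SOX9 and ΔTA-SOX9 had no peak confined to the last Sox9 exon, where noDOX had 3.71, and such a peak was present in SOX9+AFOS (5.11) and SOX9+ARID1a (3.71) but not in AFOS. Within 1 kb of the Sox9 start, ΔHMG-SOX9 scored 71.9 and ΔTA-SOX9 101, against 6.49 to 22.8 in the other culture lists. Which lists hold which construct was therefore taken from the labels, and intervals that start or end at the library pair labelled W1, as well as values of AFOS and SOX9+AFOS, are read with that limit.

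Of the 291 WNT regions with a peak in any in vivo list, 131 (45.0%, 95% Wilson interval 39.4 to 50.8%) were open in all 5, against 38.2% of all regions in vivo and 41.4% of those in any protein-coding window of this size. Intervals here and below cover counting error only, and regions of one gene are not independent. Another 17 (5.84%, 3.68 to 9.16%) first appeared in the W2 list and were kept in W6 and W12, against 8.02% of all regions. A similar number, 18 (6.19%, 3.95 to 9.56%), were present at D0 and absent from W2 on, against 5.65%. Another 12 were first seen at W6 and again at W12 (4.12%, 2.37 to 7.07%, against 6.9%). The remaining 113 had other patterns, and for 55 of them the highest in vivo score was under 5, close to the threshold. The intervals of the 3 changing classes held the share of all regions, and that of the static class held the 41.4% of regions in gene windows but not the 38.2%.

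**Figure D1:**
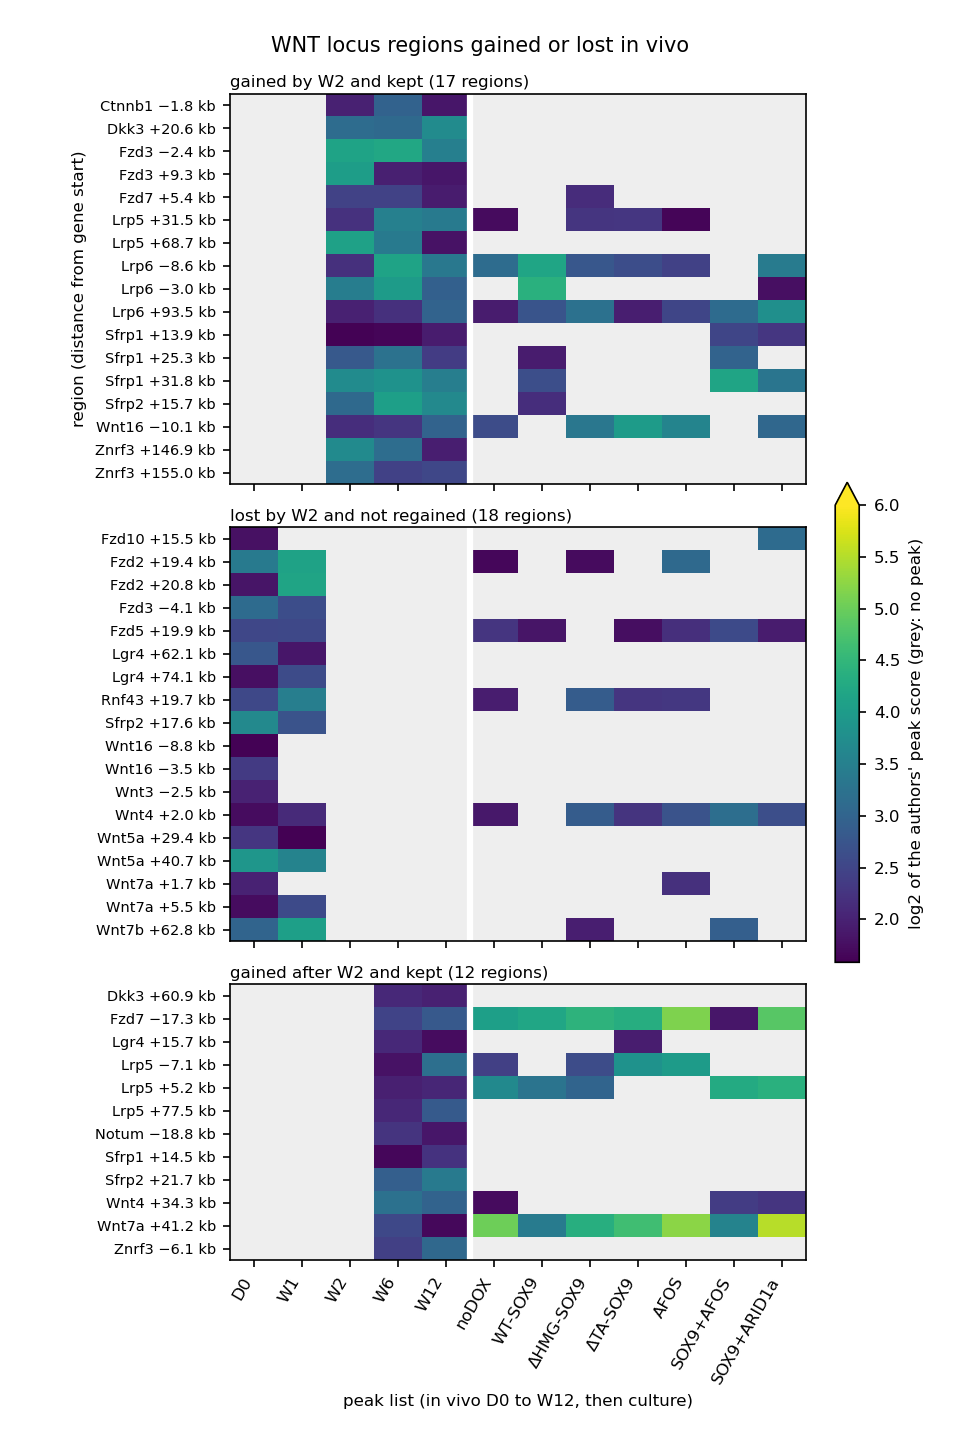
Heat map of the authors' peak score (log2 scale, grey for no peak) in the 5 in vivo and 7 culture lists for the WNT regions gained by W2 and kept (17), lost by W2 and not regained (18) and gained after W2 and kept (12). Receptor and secreted inhibitor genes hold 13 of the 17 kept regions, ligand genes 9 of the 18 lost ones. Of all 291 WNT regions in vivo, receptor genes hold 64, secreted inhibitors 33 and ligand genes 87.

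These classes are described by where they lay and by their highest in vivo score. That score is taken over all 5 lists for static regions and over fewer for the other classes. The medians below are therefore not like for like, and no positions over all regions were set beside them. None of the 17 kept regions lay within 1 kb of a WNT gene start, 9 being in introns, 7 in flanks and 1 in an exon, and the median of their highest in vivo scores was 12.9. The 18 lost regions, 12 of them in flanks and 6 in introns, had a median highest score of 6.0, and the 12 late ones 6.42. The 131 static regions had 21.8, and 28 of them were at a WNT promoter. Since a region must be scored at least 3 to be seen, 6 of the 18 lost and 5 of the 12 late regions were under 5 in every in vivo list, against 1 of the 17 kept regions. By gene, 10 of the 39 had a kept region, 13 a lost one, 3 both and 19 neither. Of 56 other genes of the pathway, described further below, 20 had a kept region, 14 a lost one and 30 neither. The matching shares over all genes were not taken.

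From D0 to W2 the shares gained and lost differed by the role of the gene, in a comparison chosen after the values were seen. Over all WNT genes 38 of 106 regions absent at D0 were present at W2 (35.8%, 27.4 to 45.3%, against 38.0% of all regions) and 35 of 185 present at D0 were absent at W2 (18.9%, 13.9 to 25.2%, against 19.6%). The lost share was 46.1% (all regions 43.2%) with the same −log10 q-value minimum in each list and 9.19% (9.3%) for regions scored at least 5 where present, and the gained share 25.5% (21%) and 17% (21.6%). Ligand genes gained 3 of 26 (11.5%, 4.0 to 29.0%) and lost 19 of 61 (31.1%, 20.9 to 43.6%). Receptor genes gained 16 of 28 (57.1%, 39.1 to 73.5%) and lost 6 of 36 (16.7%, 7.87 to 31.9%). Turnover genes gained 9 of 19 (47.4%) and lost 5 of 37 (13.5%), and secreted inhibitors gained 8 of 16 (50%) and lost 4 of 17 (23.5%). Only the ligand and receptor intervals for gain, and that of the ligands for loss, lay clear of the share of all regions, and no test between roles was made. In gene bodies alone the ligand loss was 18.8% (all regions 19.6%), and with peaks scored at least 5 the receptor gain was 44% (43.1%), so that each then stood at the background. As counts of open regions, ligand genes had 61, 70, 45, 51 and 59 in the successive lists. All regions of these lists numbered 54406, 55866, 59313, 71511 and 67851. The ligand count at W12 was thus near that of D0 in a list with more regions, and so a smaller part of it. Receptor genes had 36, 36, 46, 51 and 44 over the same lists and secreted inhibitors 17, 16, 21, 25 and 28.

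**Figure D2:**
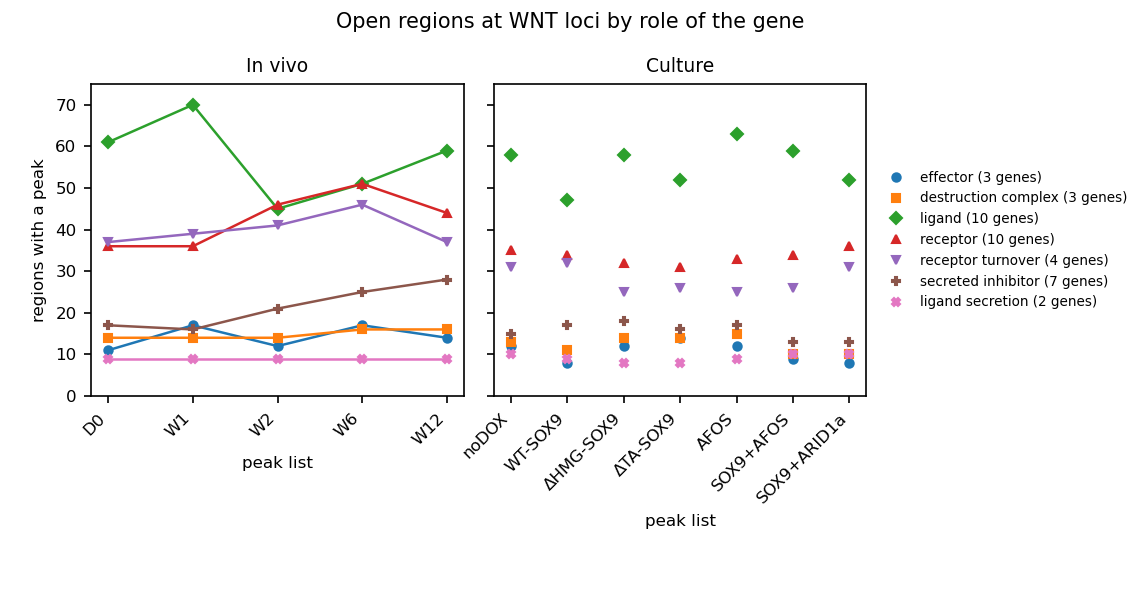
Number of WNT regions with a peak (y axis) in each in vivo list (left, joined in order of time) and each culture list (right), by role of the gene. The ligand line stands at 70 in W1 and at 45 in W2, where receptors stand at 46.

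**Figure D3:**
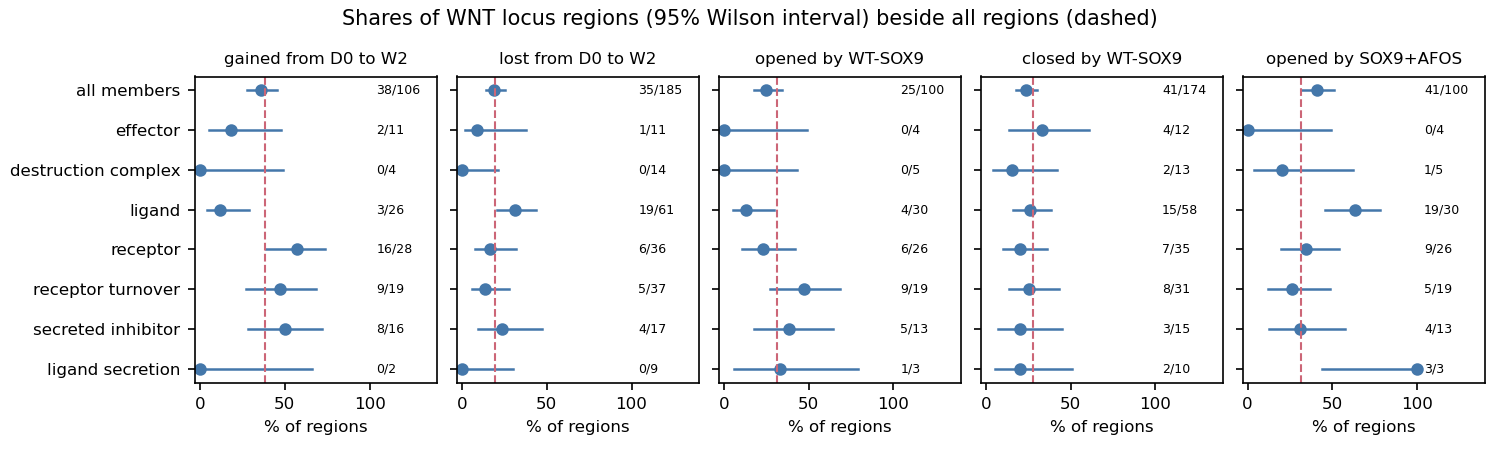
Shares of WNT regions (x axis, percent of the regions that could change) gained or lost from D0 to W2, opened or closed by WT-SOX9 and opened by SOX9+AFOS, by role, with 95% Wilson intervals, counts, and the share of all regions as a dashed line. The ligand genes lie left of the line for gain (11.5% against 38.0%) and right of it for loss (31.1% against 19.6%).

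Ligand genes lost most at Wnt3 and Wnt5a. Wnt3 and Wnt5a encode ligands of the canonical pathway and mainly of the β-catenin-independent branch, respectively. Wnt3 had 8 open regions at D0 and 3 at W2, Wnt5a 7 and 3. At Wnt3 +6.3 kb (intron) the scores were 9.99 at D0, 12 at W1, 0 at W2 and W6 and 3.64 at W12. At Wnt3 +27.2 kb they were 6.78, 9.94, 0, 0 and 6.14. Both had no peak at W2 and W6, and at W12 the first was below its D0 score and the second near it. The Wnt3 promoter itself scored 7.37 and 11.9 at D0 and W1, 3.72 and 3.51 at W2 and W6, and 0 at W12. At Wnt5a +40.7 kb, downstream of the gene, the scores were 14.9 at D0, 11.8 at W1 and 0 thereafter. At Wnt5a -14.0 kb they were 14.3, 4.09, 0, 0 and 14.4, so that this region was open at both ends of the series. Wnt3a +48.7 kb, downstream of another canonical ligand gene, ran 17.5, 12.8, 0, 5.33 and 5.26. Ligand gains were few: Wnt6 -11.9 kb (6.33 to 8.92 from W1 on), Wnt16 -10.1 kb (4.5, 4.81 and 7.93 from W2 on) and Wnt5a +3.0 kb (3.39 at W1 and 3.11 at W2 only). Wnt16, a ligand with a known role in bone, lost 2 regions seen at D0 alone, at -8.8 kb (3.06) and -3.5 kb (5.07), and its promoter scored 39.5 at D0 and 6.67 to 18.4 later. Wnt7b +62.8 kb, 1 of the 9 ligand regions lost for good, scored 8.03 at D0 and 16.8 at W1.

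Between D0 and W1 the WNT loci gained 35 of 106 regions (33.0%, 24.8 to 42.4%, against 20.4% of all regions) and lost 19 of 185 (10.3%, against 12.7%). Ligand genes held 17 of the 35 gained. Of the ligand regions absent at D0, 17 of 26 appeared (65.4%, 46.2 to 80.6%), as did 6 of 11 effector regions, but 5 of 28 receptor regions (17.9%). The 56 other genes of the pathway, described further below, gained 46 of 203 (22.7%, 17.4 to 28.9%). The 9 other WNT ligands among those gained 6 of 19 (31.6%, 15.4 to 54.0%). Both of these intervals held the 20.4% of all regions. Between W1 and W2, 41 of 90 were gained (45.6%, against 43.7%) and 54 of 201 lost (26.9%, against 24.7%), with 27 of 70 at ligand genes (38.6%, 28 to 50.3%). The W1 list is the one without the peak in the last Sox9 exon, its part in these shares was not tested, and with regions scored at least 5 where present the share gained from D0 to W1 was 8.49% (against 6.36% of all). From W2 to W6 44 of 103 were gained (42.7%, against 51.8%) and 17 of 188 lost (9.04%, against 10.9%), and in lists cut to the same size the gain was 24.1% (against 33.8%). From W6 to W12 27 of 76 were gained (35.5%, against 40.8%) and 35 of 215 lost (16.3%, against 18.7%).

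Receptor genes gained mainly at Lrp5, Lrp6, Fzd3 and Fzd7. LRP5 and LRP6 are the co-receptors without which canonical WNT cannot signal. Lrp5 went from 7 open regions at D0 to 12 at W2 and Lrp6 from 5 to 9. At Lrp6 -3.0 kb the scores were 0 at D0 and W1, then 11.0, 16.1 and 7.67. Lrp6 -8.6 kb scored 0, 0, 4.58, 17.7 and 10.2. Both upstream regions were therefore highest at W6 and lower again at W12. Lrp5 +68.7 kb was highest when it appeared (17.3, then 10.5 and 3.48), whereas Lrp5 +31.5 kb was lowest then (4.65, then 11.4 and 10.6). Lrp6 +93.5 kb scored 3.97, 4.60 and 7.91. Fzd3 -2.4 kb (17.8, 18.8 and 11.3) was the strongest kept region of all at W6. It lies 2.4 kb upstream of a Frizzled receptor gene, at chr14:65264482-65265240, but closer (1757 bp) to the start of Fbxo16, and Fzd3 +9.3 kb in a UTR of the same gene scored 16.5, 3.92 and 3.59. Fzd7 gained 3 regions, with 5.48, 5.50 and 3.81 at +5.4 kb. In the other direction, Fzd2 +19.4 kb scored 10.6 at D0 and 17.5 at W1 and Fzd2 +20.8 kb 3.58 and 18, with no peak from W2 on. Fzd3 -4.1 kb (8.71 and 6.22), which was lost beside the region gained there, is at the promoter of Fbxo16, 72 bp from its start. Fzd1 and Fzd8 had no region that changed in vivo.

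Genes of receptor turnover differed among themselves. Znrf3, a surface ubiquitin ligase that removes Frizzled, had 8 open regions at D0 and 15 at W2. All 7 gained ones lay in introns, of which +146.9 kb (12.9, 9.0 and 3.90) and +155.0 kb (9.01, 5.40 and 5.74) stayed. Lgr4, a receptor for R-spondin, lost 4 regions by W2 and gained 1. The gained Lgr4 +87.2 kb scored 10.1 at W2 and 7.21 at W6. Of the lost ones, +57.4 kb (3.68 and 4.02 at D0 and W1) and +90.1 kb (4.09 and 5.46) had peaks again at W6, of 6.70 and 4.35. Lgr4 +62.1 kb scored 6.91 and 3.62 at D0 and W1, and Lgr4 +74.1 kb 3.39 and 6.01. Yet the largest score of the WNT loci opened in culture was also at Lgr4: +48.6 kb scored 3.73 before DOX and 0 after 1 week, then 50, 40.6 and 26.7. That region counts as neither gained nor lost because of its low D0 peak. Rnf43 +19.7 kb, in an intron of the second ubiquitin ligase gene, scored 5.83 at D0 and 11.1 at W1 and was not seen later. Rspo1, which encodes an R-spondin, had no region at D0, W1 or W2, and 2 at W6 (6.85 at -8.0 kb, 3.58 at its promoter).

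Secreted inhibitors gained at Sfrp1, Sfrp2 and Dkk3. SFRP1 and SFRP2 bind WNT ligands and are made by cells of the hair follicle. Sfrp1 +31.8 kb (chr8:23442893-23443715, intron) scored 0 at D0 and W1, then 13.2, 14.2 and 11.1, and Sfrp1 +25.3 kb 7.08, 9.55 and 5.15. Its promoter was open throughout in vivo and scored 49.5, 57.5, 44.8, 31.7 and 38.4 from D0 to W12. Sfrp2 +15.7 kb scored 8.50, 16.9 and 12.6 from W2 on. The neighbouring Sfrp2 +17.6 kb did the reverse, with 12.6 and 6.59 at D0 and W1 and no peak later. Also downstream, Sfrp2 +21.7 kb was the strongest of those seen only after W2 (7.61 and 10.6). Dkk3, of the Dickkopf family, gained 4 regions by W2, of which +20.6 kb stayed (8.86, 8.53 and 13.2), and lost 2. The promoter of Notum, a lipase that removes the lipid of WNT ligands, was open at 3.95 to 5.39 in vivo but not at W2. Dkk1 had no in vivo peak and Dkk2 none in any list. In bulk samples a change in the number of cells of a kind and a change in openness per cell cannot be told apart, and the hair follicle stem cell markers had a summed promoter score of 38.7 at D0, 35.4 at W1, 43.6 at W2, 55.3 in the W6 list and 51.9 in the W12 list. The members differed: from D0 to W2 Nfatc1 went from 11.7 to 5.63 and Lhx2 from 3.3 to 0, while Tcf7l1 went from 9.94 to 16.8 and Sox9, the gene that the transgene also carries, from 13.8 to 21.2. Of 4 suprabasal markers, Ivl scored 6.51, 5.8, 26.4, 19.4 and 12.1 from D0 to W12, Krt10 had a peak at W1 only (3.03) and Krt1 and Lor had none. The part of these markers in the gains was not tested.

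At the effectors 10 of 22 in vivo regions were static (45.5%) and at the destruction complex 12 of 18 (66.7%), beside 45.0% over all members. From D0 to W1 the effectors gained 6 of 11 absent regions (54.5%, 28 to 78.7%, against 20.4% of all regions) and from W1 to W2 they lost 6 of 17 (35.3%, 17.3 to 58.7%, against 24.7%). β-Catenin's gene had 4 static regions of 5 in vivo, among them Ctnnb1 -10.1 kb (75.7, 69.6, 65.3, 49.5 and 61.7 from D0 to W12) and +3.9 kb (6.82, 18.2, 30.1, 29.8 and 15.5). The latter holds the RefSeq start of the gene, and there was no peak within 1 kb of the upstream start that GENCODE gives. Ctnnb1 -1.8 kb was its 1 gained region, with 3.97, 7.86 and 3.59. For Lef1, an effector strong in hair precursors, +1.8 kb (18.1, 9.17, 18.8, 10.3 and 8.97) and +29.1 kb (11.5, 12.2, 6.61, 3.92 and 7.70) were open in every in vivo list and in no culture list. Lef1 -4.3 kb was seen at W1 (3.43) and W2 (3.33) only, while +29.8 kb (3.49) and +71.9 kb (3.41) had a peak at W1 alone and +0.8 kb (3.99) and +131.3 kb (4.0) at W6 alone. Tcf7 +9.6 kb was missing at W2 alone (4.03, 5.16, 0, 3.26 and 5.75), and the Tcf7 promoter was highest at W1 (20.2) and lower at D0 (4.64) and W12 (3.80). Tcf7 -3.9 kb and +42.0 kb each had 1 low in vivo peak (3.41 at W12, 3.26 at W6), and Tcf7 +20.9 kb, +22.0 kb and +28.9 kb were each open at W1 and at 1 later time point. Axin2, a β-catenin target that feeds back on the pathway, had regions at -9.4, +13.6 and +21.6 kb open in all in vivo lists and none in culture, of which -9.4 kb scored 14.9, 31.0, 13.1, 11.7 and 7.34. Axin2 +5.1 kb was absent at W1 only (7.39, 0, 7.78, 6.47 and 5.15), and Axin2 +35.3 kb had a peak of 3.26 at W6 alone, and in culture 3.07 in noDOX and 3.3 in SOX9+ARID1a. Regions of the destruction complex lost from D0 to W2 were 0 of 14 (up to 21.5% by the interval, against 19.6% of all regions). Genes for ligand secretion had 9 open regions in each in vivo list, though not the same ones. Wls +30.0 kb was open up to W2 only (3.14, 5.05 and 4.89), Porcn +5.3 kb at W6 only (5.33) and Wls +26.2 kb at W12 only (4.0). Wls +45.6 kb scored 13.3 and 11.7 at D0 and W1 and then 58.2, 65.3 and 31.4.

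Regions that appeared after W2 were spread over 10 genes. Those with the highest scores at W6 and W12 were Sfrp2 +21.7 kb, Wnt4 +34.3 kb (9.45 and 7.99), Lrp5 -7.1 kb (3.47 and 9.18), Znrf3 -6.1 kb (5.33 and 8.41) and Lrp5 +77.5 kb (4.20 and 7.16). Lrp5 thus held 3 of the 12. W12 skin was grafted, and 13 other regions were seen at W12 alone. Among the lists without a graft, 5 were seen at D0 alone, 19 at W1 alone, 7 at W2 alone and 14 at W6 alone. The matching shares over all regions were not taken, and the part of the graft in the W12 regions was not tested.

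A peak within 1 kb of the annotated start was present in all 12 lists for 22 of 39 genes, in some for 14 and in none for 3 (Ctnnb1, Dkk2 and Sfrp2). By any RefSeq start, 23 genes were open in all 12 and 2 (Dkk2 and Sfrp2) in none. WNT genes were open at the start in 59.0 to 87.2% per list, against 46.5 to 58.6% of all 21951 protein-coding genes. Wnt3 had a peak in noDOX (3.69) and in none of the 6 arms. Sfrp1 stood at 31.7 to 57.5 in vivo and at 0 to 7.90 in culture, and Wnt16 at 6.67 to 39.5 in vivo and 0 to 4.85 in culture. Fzd10 scored 16.2 in noDOX, 5.24 in WT-SOX9, 22.9 in SOX9+AFOS, 8.0 in SOX9+ARID1a and 0 in the other 3 arms. Wnt10b, a hair follicle ligand, was open at D0 (7.98), W6 (3.56) and W12 (5.22), and in noDOX (4.17), ΔHMG-SOX9 (3.25) and AFOS (4.31).

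**Figure D4:**
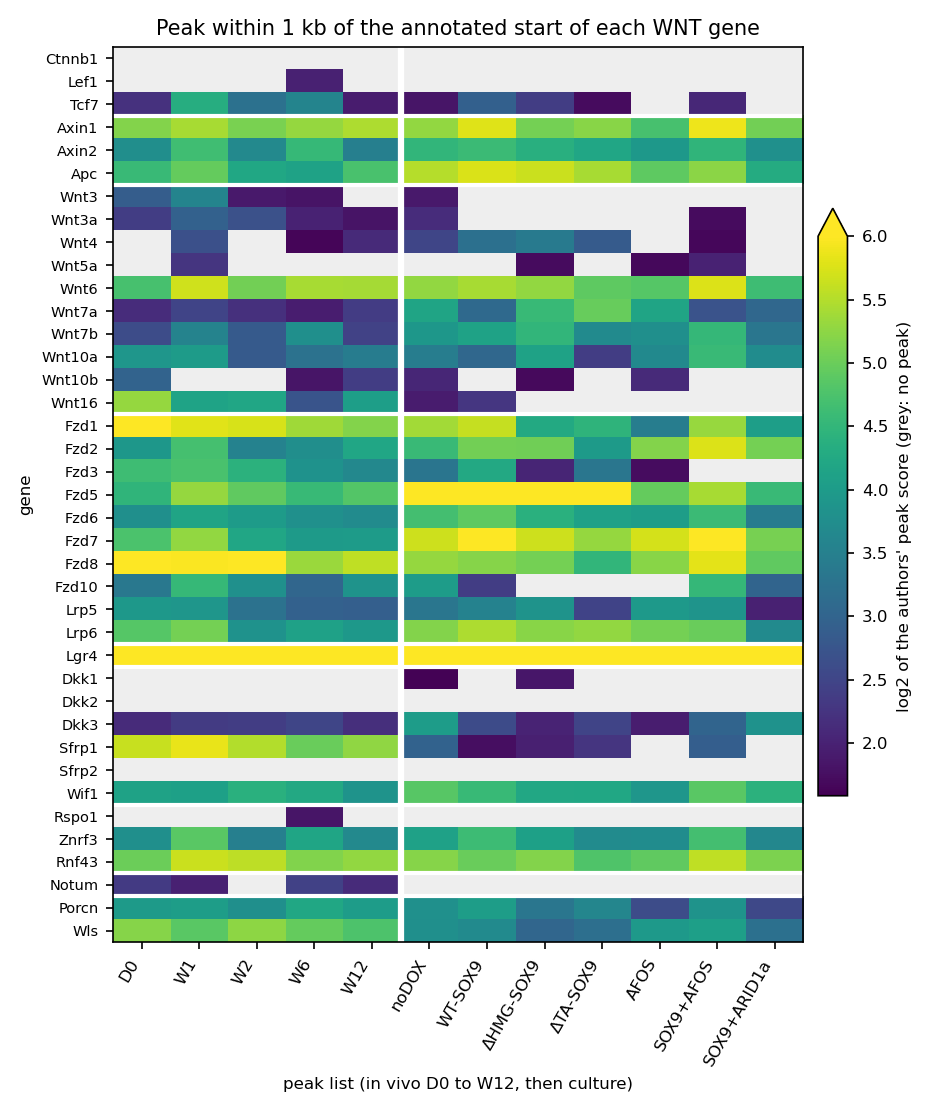
Authors' peak score (log2 scale, grey for no peak) within 1 kb of the annotated start of each of the 39 WNT genes, grouped by role, in the 5 in vivo and 7 culture lists. Lgr4 is bright in all 12 lists, Fzd3 and Fzd10 are grey in some culture lists, and Sfrp1 stands at 31.7 or more in vivo and at 7.90 or less in culture.

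In culture, WT-SOX9 opened 25 of the 100 WNT regions absent without DOX but seen in some arm (25%, 17.5 to 34.3%, against 31.4% of all regions) and closed 41 of 174 (23.6%, 17.9 to 30.4%, against 27.9%). With peaks scored at least 5 only, the closed share was 15.8% (against 28.8%). For regions scored at least 5 where present, the closed share was 8.05% (against 14.1%) and the opened share 14% (against 18%). Turnover genes gave 9 of the 25 opened (9 of 19 possible, 47.4%, 27.3 to 68.3%), secreted inhibitors 5 of 13 (38.5%), receptors 6 of 26 (23.1%) and ligands 4 of 30 (13.3%, 5.31 to 29.7%). Znrf3 had 6 of them and Lrp6 5. Lgr4 +48.6 kb was highest (52.7), followed by Wls +88.2 kb (32.5), Wnt16 +28.9 kb (30.3), Lrp6 +29.2 kb (25.3) and Lrp6 -3.0 kb (21). These 5, chosen by their WT-SOX9 score and absent from noDOX by definition, scored 0 in ΔHMG-SOX9 and ΔTA-SOX9, and in AFOS Wnt16 +28.9 kb scored 3.31 and the other 4 were at 0. In the SOX9+ARID1a list they scored 8.82, 3.3, 4.07, 5.91 and 3.41, and in SOX9+AFOS 12.1, 4.74, 0, 5.68 and 0. Of the 25, 5 held SOX letters (20%, against 16.6% of all WT-SOX9-opened regions) and 2 AP1 letters (8.0%, against 16.9%).

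WT-SOX9 closed 4 of 12 effector regions (33.3%, 13.8 to 60.9%, against 27.9% of all regions) and opened 0 of 4 (interval up to 49.0%, against 31.4%). Both intervals held the share of all regions, but 4 regions are too few to place the opened share. WT-SOX9 also opened 0 of 5 regions of the destruction complex (interval up to 43.4%, against 31.4%), again too few. Lef1 +58.9 kb scored 11.1 in noDOX, 0 in WT-SOX9, 6.85 in ΔHMG-SOX9, 14.8 in ΔTA-SOX9, 6.04 in AFOS and 0 in SOX9+AFOS and SOX9+ARID1a. Lef1 +127.5 kb scored 3.31 in noDOX and 0 in WT-SOX9, which left Lef1 without any region in that list, as in SOX9+ARID1a. It scored 0 in ΔTA-SOX9 and AFOS too, 6.12 in ΔHMG-SOX9 and 3.5 in SOX9+AFOS. Other low culture peaks at Lef1, without a noDOX one, were +46.1 kb in ΔHMG-SOX9, ΔTA-SOX9 and AFOS (3.23, 4.90 and 3.31) and +33.5 kb in ΔTA-SOX9 (3.09). Ctnnb1 -15.9 kb scored 9.18 in noDOX, 6.86, 7.29 and 5.87 in ΔHMG-SOX9, ΔTA-SOX9 and AFOS, 8.08 in SOX9+ARID1a and 0 in WT-SOX9 and SOX9+AFOS. Ctnnb1 +7.3 kb had a peak in noDOX alone (3.99). Tcf7 +22.0 kb, absent in noDOX and WT-SOX9, was open in ΔHMG-SOX9 (6.75), ΔTA-SOX9 (19.2), AFOS (8.07) and SOX9+ARID1a (5.25). Tcf7 +28.9 kb scored 4.18 in noDOX and 0 in ΔHMG-SOX9 and SOX9+ARID1a, Tcf7 -3.9 kb was open in ΔTA-SOX9 (4.66) and AFOS (3.02), and the Tcf7 promoter, at 3.56 in noDOX, had no peak in AFOS and SOX9+ARID1a. The other regions with the highest noDOX scores among those closed were Apc +21.4 kb (18.5), Wnt7a +61.9 kb (13.3) and Fzd10 -19.7 kb (11.0). The last was open in all in vivo lists, at 61.6, 39.8, 20.7, 19.7 and 31.4. SOX letters were in 0 of the 41 closed regions (against 3.61% of all closed regions), AP1 letters in 15 (36.6%, 23.6 to 51.9%, against 36.3%).

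**Figure D5:**
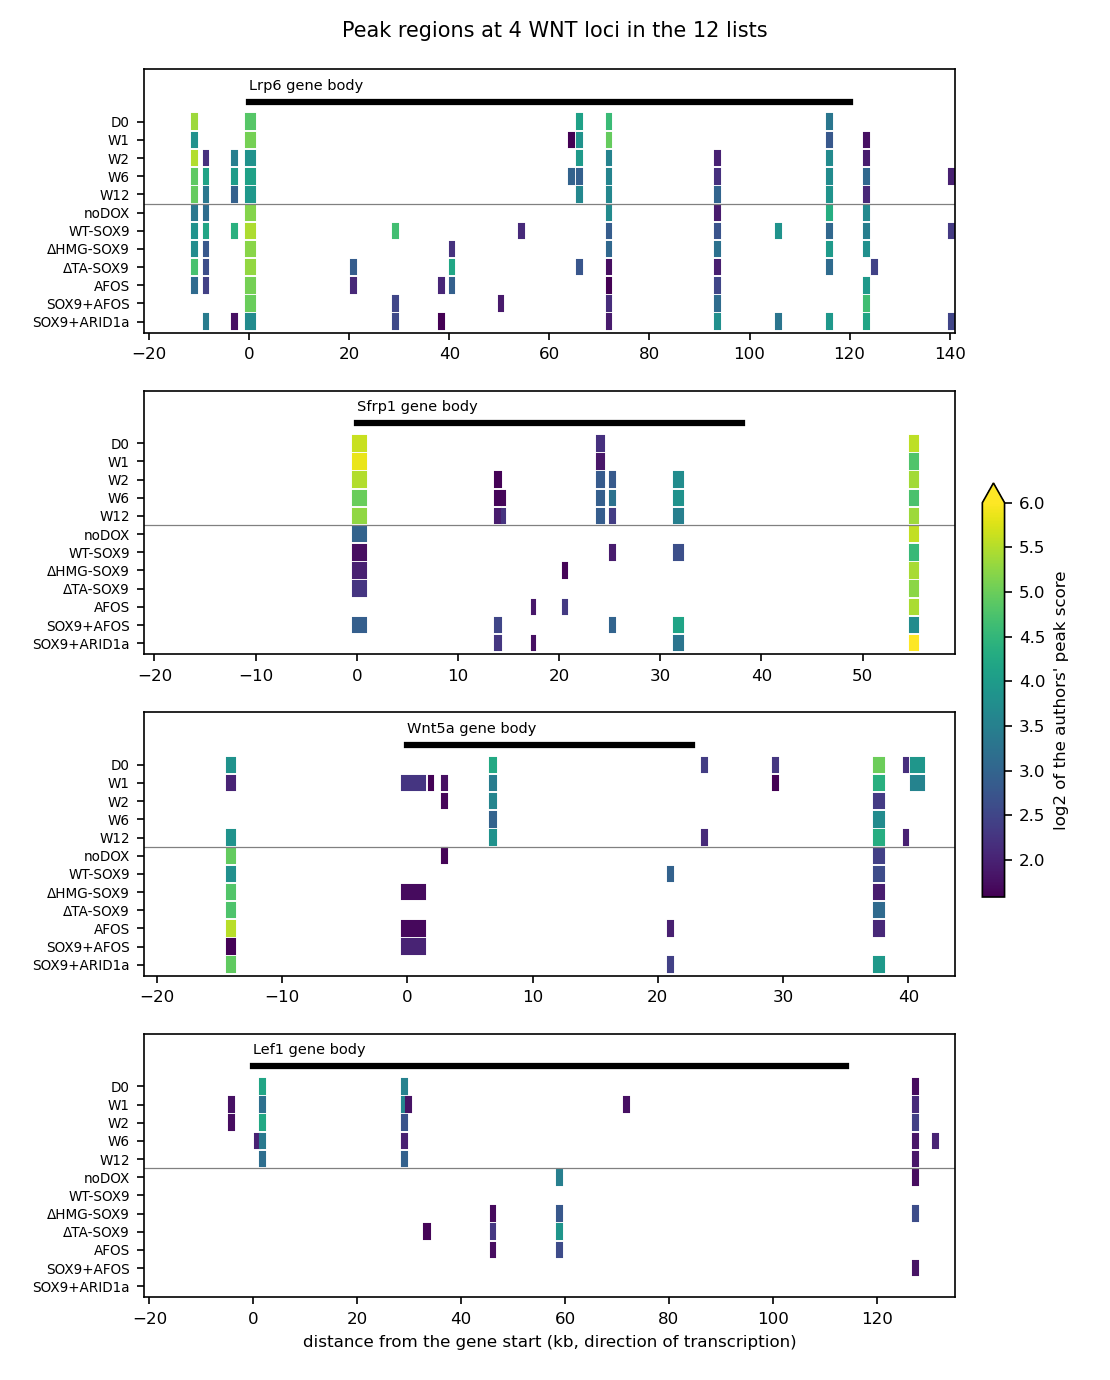
Peak regions at Lrp6, Sfrp1, Wnt5a and Lef1 by distance from the gene start (x axis, kb in the direction of transcription), one row per list, with the authors' score as colour and narrow regions widened to be visible. Sfrp1 gains regions at +25.3 and +31.8 kb from W2 on and in WT-SOX9, and the Lef1 rows of WT-SOX9 and SOX9+ARID1a are empty.

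The other 5 arms share the noDOX list with WT-SOX9, so their own shares stand side by side and are not compared as overlaps. ΔHMG-SOX9 opened 21 of 100 (21%, 14.2 to 30.0%, against 17.7% of all regions) and closed 28 of 174 (16.1%, against 18.4%). ΔTA-SOX9 opened 23 (23.0%, 15.8 to 32.2%, against 32.2%) and closed 36 (20.7%, against 19.2%). AFOS opened 33 (33.0%, against 34.6%) and closed 33 (19.0%, against 17.3%), and the opened share was 17.5% (against 25.6%) in lists cut to the same size. SOX9+ARID1a opened 31 (31.0%, 22.8 to 40.6%, against 28.8%) and closed 45 (25.9%, 19.9 to 32.8%, against 20.5%), but 18% (against 20.8%) with peaks scored at least 5 only. Among regions near any protein-coding gene SOX9+ARID1a closed 19.0%, just outside the interval of the WNT regions. SOX9+AFOS opened 41 (41.0%, 31.9 to 50.8%, against 31.2%) and closed 54 (31.0%, 24.6 to 38.3%, against 34.8%). Among regions near any protein-coding gene SOX9+AFOS opened 33.0%, inside the interval of the WNT regions, and closed 31.1%. For SOX9+AFOS, AFOS and SOX9+ARID1a the word fragments stands in the peak names and for noDOX it does not, so peak calling may differ between them, and its part in these shares was not tested. In the SOX9+AFOS list 19 of 30 ligand regions opened (63.3%, 45.5 to 78.1%), 6 of them at Wnt7b and 6 in the window of Wnt6, which overlaps that of Wnt10a. The highest were Wnt7b +21.4 kb (26.3), Wnt7b +13.8 kb (18.9), Wnt4 +14.8 kb (16.5), Wnt6 -17.5 kb (11.0) and Wnt7b +47.9 kb (10.6). These 5, chosen by their score among the 41, stood at 0 in WT-SOX9, and in the AFOS list Wnt7b +21.4 kb had 3.24 and the other 4 had 0. In SOX9+ARID1a, Wnt4 +14.8 kb (20.3), Wnt7b +21.4 kb (9.75) and Wnt7b +47.9 kb (4.12) had a peak, and in ΔHMG-SOX9 Wnt7b +21.4 kb (4.28). SOX9+AFOS was also the list with 3 of 5 melanocyte markers open, and the part of these markers' source in the result was not tested.

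A peak in vivo and in culture was found for 196 of 369 regions (53.1%, against 43.0% of all regions), in vivo only for 95 (25.7%, against 27.9%) and in culture only for 78 (21.1%, against 29.1%), and 78 were present in all 12 lists (21.1%, against 14.1% of all regions). Among 38 regions gained by W2, WT-SOX9 opened 4 (10.5%, against 15.3%), namely Lrp6 -3.0 kb, Sfrp1 +25.3 kb, Sfrp1 +31.8 kb and Sfrp2 +15.7 kb, with 21, 3.80, 6.25 and 4.47. Of 12 lost by W2 and present in noDOX, 8 were closed by WT-SOX9 (66.7%, against 48.6%). Those were Wnt3 +6.3 kb (5.24 in noDOX), Wnt10b +0.2 kb (4.17), Wnt3a +48.7 kb (3.42), Wnt4 +2.0 kb (3.66), Fzd2 +19.4 kb (3.16), Fzd10 +19.4 kb (3.58), Rnf43 +19.7 kb (3.85) and Dkk3 +18.1 kb (6.37), 4 of them at ligand genes and all under 7 in noDOX. In opposite directions, 3 of 10 regions gained by W2 and present in noDOX were closed by WT-SOX9 (30.0%, against 24.5%), and 0 of 4 lost by W2 and absent in noDOX were opened (against 18.2%).

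Regions present in both lists of a pair were also compared by score. On the log2 scale the median difference of WNT regions was 0.22 for W1 minus D0 (0.07 over all regions), -0.07 for W2 minus D0 (-0.02), -0.11 for WT-SOX9 minus noDOX (-0.13), -0.30 for ΔTA-SOX9 minus noDOX (-0.13) and 0.19 for SOX9+AFOS minus noDOX (-0.00). Of the 150 WNT regions present at D0 and W2, 21 had a score at least 2-fold higher at W2 (all regions 11.4%) and 10 a score at least 2-fold lower (all regions 8.4%). With WT-SOX9 7 of 133 were at least 2-fold higher than in noDOX (all regions 6.04%) and 27 at least 2-fold lower (all regions 19.6%), and with SOX9+AFOS 15 of 120 were higher (all regions 14%) and 18 lower (all regions 17.4%).

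A list of 56 other genes of the pathway was described in the same way. It covered 635 regions, of which 498 were seen in vivo and 207 (41.6%) were static, 37 (7.43%) kept and 23 (4.62%) lost. From D0 to W2 these genes gained 78 of 203 regions (38.4%, 32.0 to 45.3%) and lost 49 of 295 (16.6%, 12.8 to 21.3%), close to the 38.0% and 19.6% of all regions. The 9 other WNT ligands among them lost 6 of 39 (15.4%, 7.25 to 29.7%) and gained 5 of 19 (26.3%, 11.8 to 48.8%), and both intervals held the share of all regions. The difference between these 9 and the 10 member ligands was not tested. With SOX9+AFOS, the 9 ligands opened 14 of 28 (50%, 32.6 to 67.4%) and all 56 genes 84 of 206 (40.8%, 34.3 to 47.6%), against 31.2% of all regions. Lgr6, a paralogue of Lgr4, had 5 kept and 2 lost regions, Lgr5, a hair follicle stem cell marker, 3 and 1, and Tle4, a co-repressor that binds TCF, 4 lost ones.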

How the data were processed

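Per the study's methods and processing notes, the authors aligned reads to GRCm38 (mm10) with PEPATAC (Bowtie2 2.2.9, Picard 2.3.0, SAMtools 1.9), merged both replicates of a group, called peaks with MACS2 2.1.1 keeping duplicate reads, and dropped peaks under a normalized score of 3. The deposited peak score sums to a like total in each list, from which its scaling was inferred. The in vivo files also hold the fold enrichment and the −log10 q-value of each peak, deposited by the authors. The fold enrichment was not used, and the −log10 q-value served only an alternative setting. A score of 3 is not the same evidence in each list: the lowest −log10 q-value is 14.5, 9.37, 4.21, 5.74 and 10.1 from D0 to W12.

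Regions were merged from the peaks of all 12 lists and assigned to genes by GENCODE with 20 kb flanks, using Python 3.11.15, pandas 2.3.3, numpy 2.4.6 and scipy 1.17.1, and the code was tested on simulated data. No test was run, since the lists used here hold the replicates of each group merged into 1 list. The named regions are every changed region of Ctnnb1, Lef1, Tcf7 and Axin2, the 5 highest scores of each class, regions of the genes with most change and the promoter of each gene. Others were named after their values were seen. The members and lists were chosen with earlier results of these data known, and the D0 to W2 comparison, the shares by role and the RefSeq starts were added after values were seen. Sequences are from the GRCm38 reference (RefSeq).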

Additional observations from a re-analysis of the deposited data

Results flagged for a closer look

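In 3 WNT regions the direction was opposite in the skin and in culture: they were absent at D0 and present at W2, and present in noDOX but absent with WT-SOX9. They were 3 of the 10 WNT regions gained by W2 and present in noDOX (30.0%), against 24.5% of all such regions, so the share was near that of all regions. Lrp5 +31.5 kb scored 4.65, 11.4 and 10.6 at W2, W6 and W12, and 3.3 in noDOX and 0 in WT-SOX9. Wnt16 -10.1 kb scored 4.5, 4.81 and 7.93 in vivo and 6.09 in noDOX. Wnt5a +3.0 kb scored 3.39 at W1, 3.11 at W2 and 3.10 in noDOX, all just above the threshold of 3. The difference between the systems was not tested.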

How the results depend on the processing

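The peak lists used here were called on merged replicates, 1 per group. From them no paired analysis was possible and no replicate could be left out. Of 55 values of the 6 main results under alternative settings, 43 stayed within the counting interval and 12 moved beyond it. For the count of regions changed in both systems, which has no such interval, a fixed range around it was used. The lost share changed side against that of all regions. It was above as reported (6.19% against 5.65%) and below with windows of 50 kb (4.68% against 5.65%) and in gene bodies alone. The static share was 38.5% (all regions 34.0%) with a common −log10 q-value minimum of 14.5. The kept share was then 2.87% (3.76%), and 9.22% (11.5%) without the W12 list. The lost share was 10.1% (9.71%) in lists cut to the same 49458 peaks, 3.57% (5.65%) in gene bodies alone, 16.4% (14.6%) with the common q-value minimum and 3.09% (2.51%) for regions with a score of at least 5 where present. The WT-SOX9-opened share was 14% (18%) under that last setting. The WT-SOX9-closed share was 15.8% (28.8%) with peaks scored at least 5 only, and 8.05% (14.1%) with regions of at least 5 where present. Regions changed the same way in both systems numbered 12, and 7 in gene bodies alone and 3 with regions of at least 5 where present. The cause of these moves was not tested. From D0 to W2, over 5 settings applied to the roles after their values were seen, the ligand loss ranged from 16.4% (9.3%) to 71.2% (43.2%) and the ligand gain from 0 of 14 (21%) to 20% (43.1%). The receptor gain ranged from 26.7% (21%) to 50% (38.0%). Without the W1 list the static, kept and lost shares were 49.7% (all regions 43.0%), 7.64% (9.64%) and 6.94% (5.99%). Shares of single intervals and arms moved too. With lists cut to the same size the gain was 24.1% (33.8%) from W2 to W6 and 21.8% (31.0%) from W6 to W12, and the AFOS-opened share 17.5% (25.6%). With peaks scored at least 5 only, the AFOS-opened share was 23.5% (32.5%) and the SOX9+ARID1a-closed share 18% (20.8%). With the common q-value minimum the loss was 20.2% (21.1%) from D0 to W1, 43.5% (39.9%) from W1 to W2, 4.27% (9.72%) from W2 to W6, 6.04% (8.07%) from W6 to W12 and 46.1% (43.2%) from D0 to W2, and the gain was 28.4% (25.2%) from W1 to W2 and 25.5% (21%) from D0 to W2. For regions of at least 5 where present, which can only lower a share, the W2 to W6 gain was 14.6% (19.5%) and the ΔHMG-SOX9-opened share 5.0% (6.68%). The depth of the libraries is unknown, so an absent peak may lie below the threshold of 3.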
